A study of Mus musculus with 2 samples.

Results

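The proneural and Hes factors are a group of 9 basic helix-loop-helix (bHLH) transcription factor genes, chosen by symbol: Neurog1, Neurog2, Neurod1 and Neurod4, and Hes1, Hes3, Hes5, Hes6 and Hey1. Each of the 9 had 1 probe annotated to it alone, among 18069 genes with a probe of their own. They were measured in total RNA of the mouse embryo proper at E8.5 (embryonic day 8.5), on 1 one-colour array for a pool of 45 mDom-/- embryos and 1 array for a pool of 42 litter-matched wild-type embryos. The mDom-/- embryos are homozygous for a mutation of mDom (mDomino, p400, present symbol Ep400), the gene of the ATPase of the TIP60/p400 chromatin-remodelling complex, and the wild-type embryos carry no agent or further allele in the labels. The labels give neither the strain nor the kind of mutation. The group was put together with the values of Hes5 and Neurog2 on these arrays already known, so the values of the members are a description and no test was made of them.

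Proneural bHLH proteins such as the neurogenins pair with E proteins, bind E-boxes and commit neural progenitors to become neurons, and the Neurod factors act after them in differentiation. The committing cell presents the ligand Delta to its neighbours, where cleaved Notch joins the DNA-binding protein RBPJ and switches on Hes and Hey repressors, which in turn hold back the proneural genes and keep the neighbour a progenitor. In the mouse embryo at this stage the first neurons form in the neural tube and in the cranial placodes, and Notch targets are also used in somite formation and in the heart and vessels.

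Of the 9 members, 6 gave a signal above the floor on at least 1 array and were compared, and 5 of these were above it on both. The floor was 0.541 times the array median, the higher of the 40th percentiles of both arrays. Hes5 and Neurog2 were lower in mDom-/- embryos by at least 2-fold and no member was at least 2-fold higher. Over all 13137 compared genes, 0.929% were at least 2-fold lower and 0.845% at least 2-fold higher. Since the values of Hes5 and Neurog2 were known when the group was put together, nothing is read from the members' count against these shares.

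The sequences before the starts of Hes5 and Neurog2, the members at least 2-fold apart, and of Hes6, a member with nearly equal signal on both arrays, are shown because RBPJ and bHLH proteins bind short motifs of this kind. They are the 250 bases before a transcript start, 5′ to 3′ on the strand of the gene, from RefSeq on GRCm38.p6, and capitals mark the core of the RBPJ motif (TGGGAA, or TTCCCA where it lies on the reverse strand).
Hes5, chr4:154960673-154960922, plus strand: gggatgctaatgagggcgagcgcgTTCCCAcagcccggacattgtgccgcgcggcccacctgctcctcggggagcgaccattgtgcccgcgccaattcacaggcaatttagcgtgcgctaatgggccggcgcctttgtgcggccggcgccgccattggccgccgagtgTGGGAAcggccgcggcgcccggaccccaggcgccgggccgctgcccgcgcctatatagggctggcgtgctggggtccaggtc
Neurog2, chr3:127632886-127633135, plus strand: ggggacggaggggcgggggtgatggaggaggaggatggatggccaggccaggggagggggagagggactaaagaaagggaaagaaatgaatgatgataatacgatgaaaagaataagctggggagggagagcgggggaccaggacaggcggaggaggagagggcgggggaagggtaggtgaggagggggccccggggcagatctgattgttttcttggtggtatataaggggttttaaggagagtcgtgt
Hes6, chr1:91414039-91414288, minus strand, the upstream one of 2 listed starts: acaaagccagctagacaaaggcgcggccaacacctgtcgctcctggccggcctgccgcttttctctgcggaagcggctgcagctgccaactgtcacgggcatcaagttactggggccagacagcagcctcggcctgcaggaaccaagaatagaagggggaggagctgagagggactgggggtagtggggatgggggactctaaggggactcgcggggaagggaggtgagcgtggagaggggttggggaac

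Hes5 held 2 matches to the RBPJ core, the first base of one 226 bases before the start on the reverse strand and of the other 82 bases before it on the strand of the gene. Of 32851 promoter windows of this length in the table, 21.6% held at least 1 such match and 2.77% held 2 or more. None of the 7 windows of the other 5 members in the table (Neurog1, Neurog2, Neurod1, Neurod4 and Hes6) held one. The E-box CANNTG, which reads the same on both strands, was found once before Hes5 (CACCTG), 3 times before the upstream and once before the other start of Hes6, and once before Neurod1, while 66.2% of all windows held it. Neurog1 and Neurog2 had no match to any motif searched in their windows. The N-box CACNAG lay in both windows of Neurod4, which overlap and share a match, in 1 window of Hes6 and in 36.7% of all windows, and the class C site CACGCG in that of Neurod1 and in 7.62% of all. CACGTG, which is also an E-box, was in none of the 8 member windows and in 6.02% of all. Both strands were searched, and a match in these letters is not evidence of binding.

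**Figure D1:**
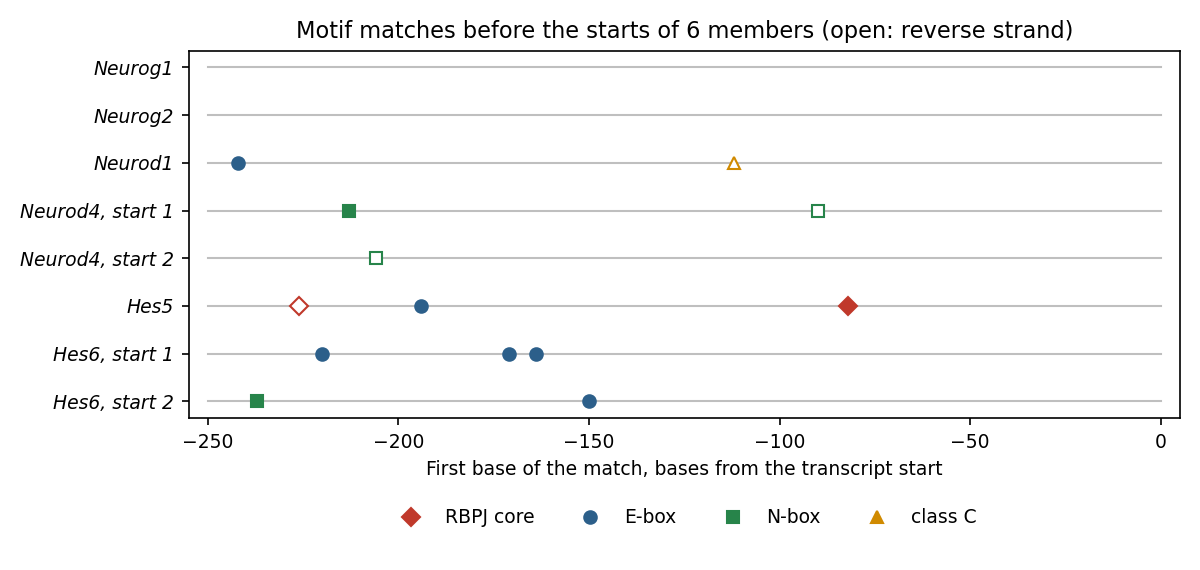
Position of motif matches in the 250 bases before 8 transcript starts of 6 members, with the first base of each match in bases from the start on the horizontal axis. Filled symbols lie on the strand of the gene and open ones on the reverse strand, and E-box matches, the same on both strands, are drawn filled; Hes5 alone among these starts carries the RBPJ core, at -226 and -82.

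Among the proneural genes, Neurog2, a determination factor of the neural tube and of placodes, had the lower ratio of the pair that could be compared. Its intensity was 0.421 array medians in the mDom-/- pool, below the floor, and 1.49 in the wild-type pool. The ratio is therefore a bound: mDom-/- embryos were lower by at least 2.75-fold (log2 ratio -1.46 with the mDom-/- value at the floor). How much lower it was, and so its place among all genes, is not settled by a bound.

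Neurod1, which encodes a factor of neuronal differentiation downstream of the neurogenins, read 0.633 array medians in the mDom-/- pool and 1.11 in the wild-type pool, both above the floor. It was 1.75-fold lower (log2 ratio -0.81), short of the 2-fold rule but past 1.5-fold, as were 4.35% of compared genes in that direction. Neurog1, the neurogenin needed for cranial sensory neurons of the proximal ganglia, read 0.104 in the mDom-/- pool and -0.054 in the wild-type pool. Neurod4 (Math3), a differentiation factor, read 0.139 in the mDom-/- pool and 0.32 in the wild-type pool. Both genes were below the floor on both arrays, so neither has a ratio here, and whether their transcripts differed was not detectable.

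Among the Hes and Hey repressors, Hes5, a Notch effector of neural progenitors, had the lowest ratio of the 5 members measured on both arrays. It read 1.10 array medians in the mDom-/- pool and 3.12 in the wild-type pool, above the floor on both. This was 2.83-fold lower in the mDom-/- pool (log2 ratio -1.50), a value known when the group was put together. At this floor 31 compared genes had a lower ratio. That count enters bounds at their floor values, so the place of Hes5 among all genes is not settled. Hes5 is the one member at least 2-fold apart with a signal above the floor on both arrays.

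Hey1, a Notch effector best known in vessels, heart and somites, read 4.28 in the mDom-/- pool and 5.89 in the wild-type pool, a log2 ratio of -0.46 (1.37-fold lower). Hes3, expressed in neural progenitors and in the midbrain-hindbrain boundary, read 0.938 in the mDom-/- pool and 1.26 in the wild-type pool, a log2 ratio of -0.43 (1.35-fold lower). Hes6, which differs from the others in that it counters Hes1 and favours neuronal differentiation, read 12.1 in the mDom-/- pool and 11.5 in the wild-type pool, a log2 ratio of 0.08. Of the 6 compared members, Hes6 was thus the one not below 0, where 50.5% of all compared genes lay below 0. Hes1, the other main Notch effector of progenitors, read 0.366 in the mDom-/- pool and 0.043 in the wild-type pool, below the floor on both, and has no ratio. The probe of Hes1 therefore does not show whether Hes1 followed Hes5.

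**Figure D2:**
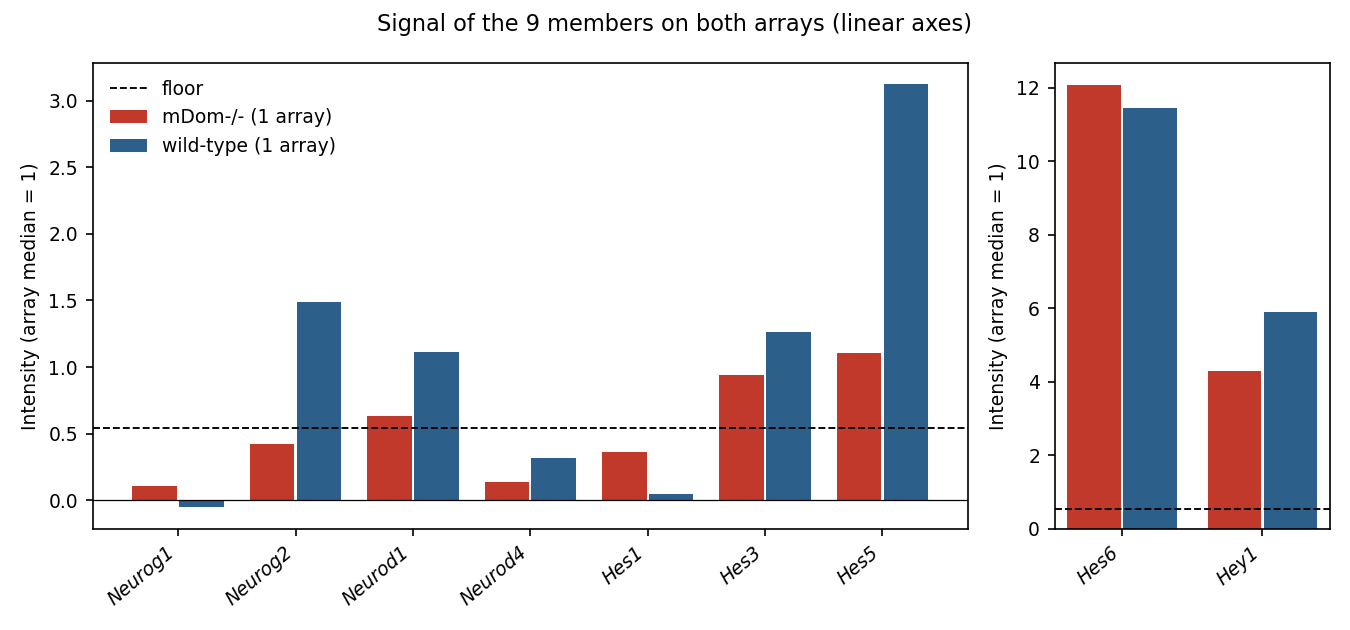
Intensity of the 9 members in units of the array median on linear axes, 1 bar per array (mDom-/- left, wild-type right), with the floor of 0.541 dashed. Hes5 and Neurog2 have lower bars in the mDom-/- pool, Hes6 has nearly equal bars, and Neurog1, Neurod4 and Hes1 lie under the floor on both arrays; bars of different genes come from different probes and cannot be set against each other.

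The members differed in how precisely they were measured. The only repeated measurement on these arrays is that of 2 probes of 1 gene, and such pairs, taken from 1302 genes with exactly 2 probes above the floor on each array, gave a log2 ratio an SD of 0.25, which covers probe and hybridisation error and not the spread between pools. Each member has a single probe, so none has such a check of its own. When the compared genes were divided into 10 equal groups by mean intensity, Neurog2, Neurod1 and Hes3 fell in the second from the bottom, where log2 ratios had a robust SD of 0.53 and 5.1% of genes were at least 2-fold lower. Hes5 fell in the fourth, with a robust SD of 0.27 and 0.913% of genes at least 2-fold lower. Hey1 and Hes6 fell in the sixth and the seventh, with robust SDs of 0.24 and 0.22. The spread of 0.53 was the widest of the 10 groups, so the ratios of Neurog2, Neurod1 and Hes3 rest on less precise signals than those of Hes5, Hey1 and Hes6.

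**Figure D3:**
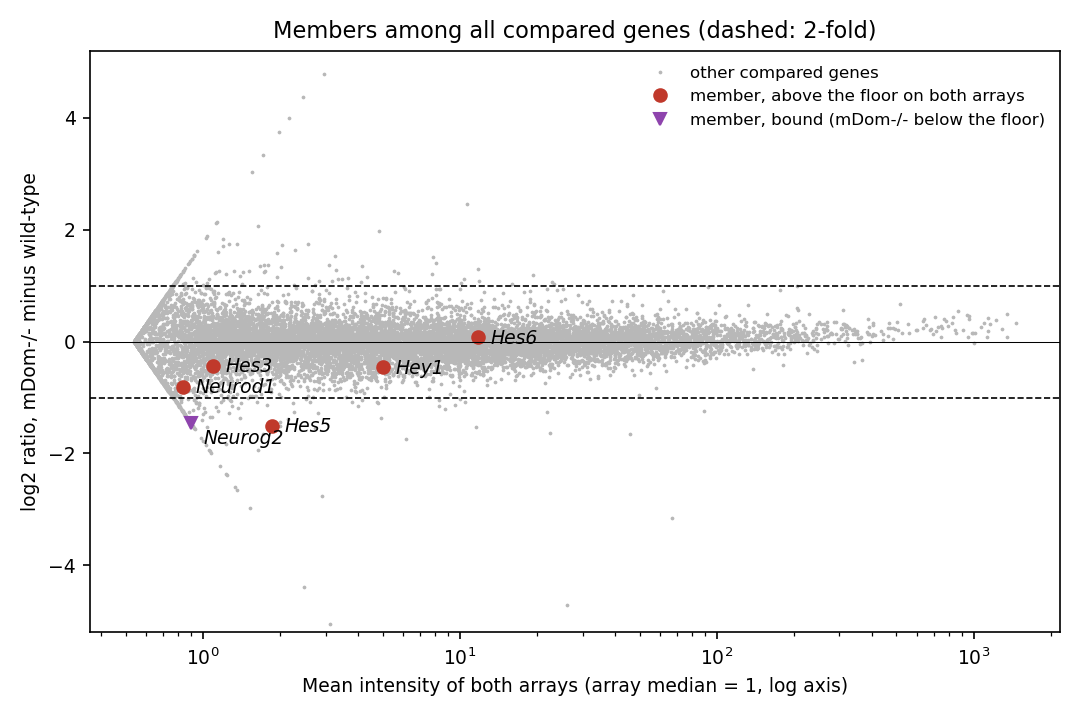
The log2 ratio (mDom-/- minus wild-type) of each compared gene against its mean intensity in array medians on a log axis, with values under the floor set to it. Hes5 (-1.50) and the bound of Neurog2 (-1.46, triangle) lie under the lower dashed 2-fold line, Neurod1 (-0.81), Hey1 (-0.46) and Hes3 (-0.43) between it and 0, and Hes6 at 0.08.

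The median log2 ratio of the 6 compared members was -0.64, beside -0.0036 over all compared genes, and -0.46 over the 5 members above the floor on both arrays. A single array stands for each group, so these values have no replicate error and no p-value, and lower RNA per cell cannot be told apart from fewer cells of a type in the pool. With the floor raised to the 60th percentile (1.76 array medians), the mDom-/- signal of Hes5 was itself under the floor, so that its log2 ratio became a bound of -0.82, Neurog2 was not compared, and no member passed the 2-fold rule.

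Other genes of the family and circuit were taken from lists put together by role, with earlier results of these data known. A gene below the floor on 1 array has only a bound, which can fall short of 2-fold where the transcript did not, so such genes are counted separately. The other Hes and Hey factors had 6 of 7 genes compared, 4 measured on both arrays with none 2-fold apart and 2 as bounds under 2-fold, with a median log2 ratio of 0.05. Hes7, the oscillating repressor of the presomitic mesoderm, read 5.96 in the mDom-/- pool and 5.47 in the wild-type pool (log2 ratio 0.12). The cardiovascular Hey2 read 1.10 in the mDom-/- pool and 1.59 in the wild-type pool (log2 ratio -0.53). Heyl read 0.831 in the mDom-/- pool and 1.02 in the wild-type pool (log2 ratio -0.30). All 3 Hey genes lay below 0 without reaching 2-fold, beside 50.5% of all compared genes below 0. Of the Groucho corepressors that Hes proteins recruit, Tle1 and Tle4 were the 2 of 6 compared, with log2 ratios of -0.09 and -0.01.

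Of the other neural bHLH activators, 5 of 12 were compared and none was 2-fold apart. Olig3, a factor of dorsal progenitors, read 4.96 in the mDom-/- pool and 3.45 in the wild-type pool (log2 ratio 0.52), and Ptf1a and Nhlh1 had log2 ratios of -0.04 and 0.15. All 7 E protein and Id genes were compared, 6 measured on both arrays with none 2-fold apart and 1, Id4, as a bound under 2-fold, with a median of -0.13. The E protein gene Tcf4 had a log2 ratio of -0.03, and Id2 and Id3, whose products sequester E proteins, had -0.15 and -0.23.

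The Notch list of receptors, ligands and processing enzymes had 19 of 26 genes compared, 18 measured on both arrays with none 2-fold apart and 1 as a bound under 2-fold, with a median log2 ratio of -0.07. Maml1, a coactivator of the RBPJ complex, had a log2 ratio of 0.15, the gamma-secretase gene Psenen 0.35 and the protease gene Adam10 -0.07, with -0.23 for its second compared probe. Of the 19 compared genes 11 lay below 0, beside 50.5% of all compared genes. The highest log2 ratio of the list was 0.57, that of Psen2 on the brighter of its 2 compared probes. This probe read 12.5 in the mDom-/- pool and 8.45 in the wild-type pool. Rbpj itself, the receptor gene Notch1 and the ligand gene Dll1 had log2 ratios of -0.10, -0.55 and -0.62, and these 3 were picked out after their values were seen. Dll1 read 0.585 array medians in the mDom-/- pool and 0.896 in the wild-type pool, both close to the floor.

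Known targets of proneural factors had 18 of 22 genes compared, with a median of 0.0022. Of the 15 measured on both arrays none was 2-fold lower and 1 was at least 2-fold higher, and the other 3 were bounds under 2-fold. The higher one was Tubb3, a neuronal tubulin, at 3.86 in the mDom-/- pool and 1.92 in the wild-type pool (2.01-fold, log2 ratio 1.01). A further probe of Tubb3 was below the floor on both arrays. The ligand gene Dll3 had a log2 ratio of 0.11, the cell cycle inhibitor gene Cdkn1c 0.12 and the chemokine receptor gene Cxcr4 0.31. Of the 18 compared targets 9 lay below 0. Dll1 and Dll3 are also on the presomitic mesoderm and somite list, and with Mfng on the Notch list. Nhlh1 is also on the list of other neural bHLH activators. Tubb3, Elavl3, Elavl4, Stmn2 and Dcx are also on the early neuron list, so the value of Tubb3 given there is the same measurement. In whole embryos a list median does not show target levels in the cells that express Neurog2 and Neurod1. Their relation to these targets was not tested.

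**Figure D4:**
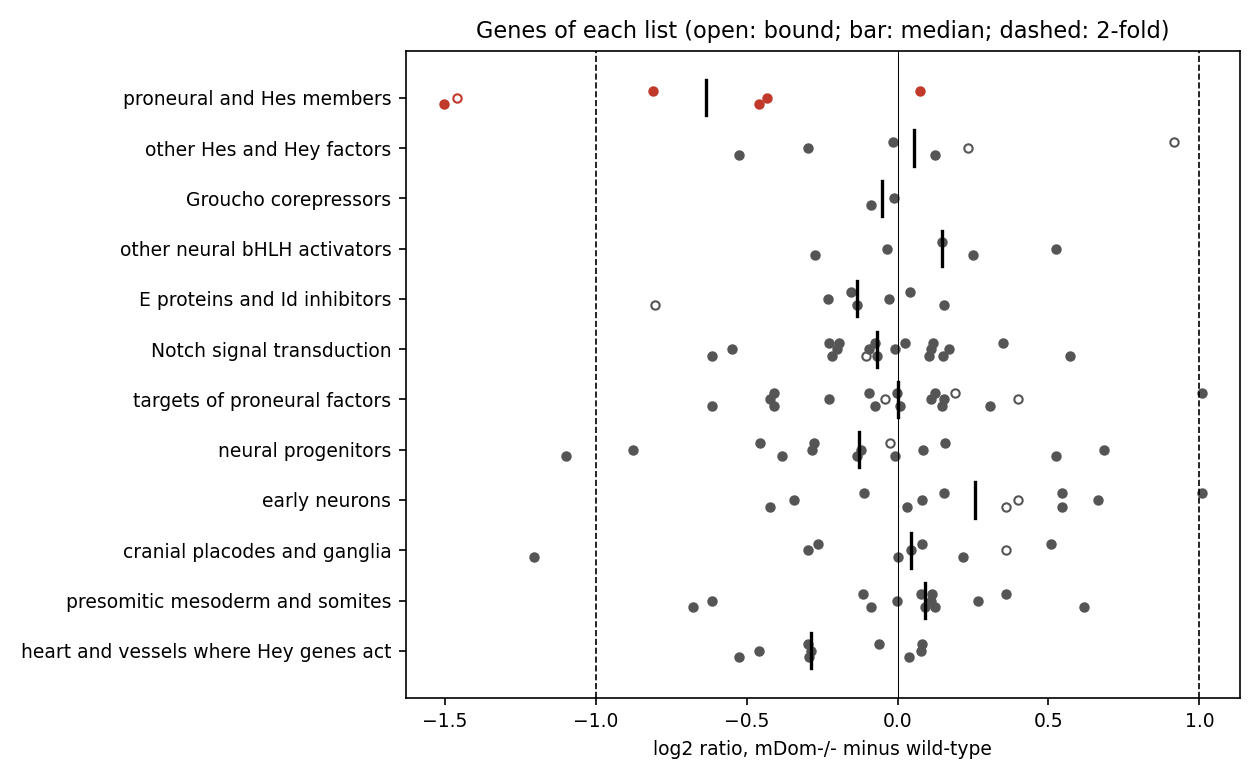
The log2 ratio (mDom-/- minus wild-type) of each compared gene in 12 lists, with filled points for genes above the floor on both arrays, open points for bounds, a bar at each list's median and dashed lines at 2-fold. The members' median is -0.64, and those of the other 11 lists run from -0.29 to 0.26. The list at -0.29, heart and vessels, also holds the member Hey1. The members were grouped with the values of Hes5 and Neurog2 known, so nothing is read from the place of their median among the lists.

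The cell types in which the members are used gave the following values, and their part in the members' values was not tested. Of 5 neural progenitor markers, 4 (Sox1, Sox3, Pax6 and Nes) were above the floor on both arrays and Sox2 was below it on both, and their summed intensity was 40.03 in the mDom-/- pool and 46.7 in the wild-type pool. In the wider progenitor list 10 of 14 compared genes lay below 0, beside 50.5% of all compared genes. The list had a median of -0.13 and 1 gene as a bound. Vim, Pax6 and Sox3 had log2 ratios of -0.28, -0.38 and -0.13, and Pou3f2, a POU factor of neural progenitors, was 2.14-fold lower on one probe but had a log2 ratio of 0.14 on its second. The compared genes of the list above 0 were Pou3f1, Fabp7, Ncam1 and Sox1, with log2 ratios of 0.68, 0.52, 0.16 and 0.09.

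The 5 early neuron markers summed to 11.2 in the mDom-/- pool and 8.79 in the wild-type pool, with Dcx below the floor on both arrays. Of the 3 above the floor on both arrays, Tubb3 and Stmn2 had log2 ratios of 1.01 and 0.15, and Elavl4 had -0.42. Tubb3 read 3.86 in the mDom-/- pool and 1.92 in the wild-type pool. Elavl3 was above the floor in the mDom-/- pool only. The early neuron list had a median of 0.26 over 12 compared genes, 2 of them bounds. Of the 12, 3 lay below 0, beside 50.5% of all compared genes. Stmn2, Isl1 and Onecut2 had log2 ratios of 0.15, 0.08 and 0.54, and the other 2 probes of Onecut2 had 0.04 and 0.14. The 3 genes of the list below 0 were Elavl4, Stmn3 and Lhx1, with log2 ratios of -0.42, -0.34 and -0.11. How this list relates to the ratios of Neurog2, Neurod1 and Hes5 was not tested.

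In the cranial placode and ganglion list 9 of 14 genes were compared, 1 as a bound, with a median of 0.04. Of these 9 genes 3 lay below 0, beside 50.5% of all compared genes. Sox10, a gene of neural crest and otic cells, was 2.30-fold lower, at 5.79 in the mDom-/- pool and 13.3 in the wild-type pool. Six4 and Isl1 had log2 ratios of -0.26 and 0.08, and the highest of the list was Phox2a at 0.51. Of 4 placode markers with a probe, Eya1, Pax2 and Pax8 were below the floor on both arrays and Eya2 had a log2 ratio of 0.04. All 6 presomitic mesoderm and somite markers were above the floor on both arrays, with a summed intensity of 48.7 in the mDom-/- pool and 47.0 in the wild-type pool. That list had a median of 0.09 and no gene 2-fold apart, with Meox1 at -0.09 and Foxc2 at 0.09.

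The list of heart and vessel genes, which holds all 3 Hey genes, had a median of -0.29 over 9 compared genes and none 2-fold apart. Without the 3 Hey genes the median of the other 6 was -0.01. Myl7 and Tnnt2 of heart muscle had log2 ratios of 0.08 and -0.06, and the endothelial receptor gene Kdr -0.29. The relation of the Hey1 ratio (-0.46) to these genes was not tested.

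As facts of the whole series, both arrays had deposited medians of 1.05, and the labels could not be checked by Ep400, whose 2 probes were below the floor on both arrays. Of tissues outside the embryo proper, the visceral endoderm markers Afp, Ttr, Apob and Cubn were above the floor on both arrays. Plac1 of trophoblast was too, while Amn of visceral endoderm and Tpbpa of trophoblast were below the floor on both. Visceral endoderm markers summed to 304.1 in the mDom-/- pool and 231.9 in the wild-type pool, but only Ttr (log2 ratio 0.59) was higher of the 4 compared; Afp, Apob and Cubn had log2 ratios of -0.33, -0.16 and -0.62, and the median was -0.25. Of 5 trophoblast markers 2 had a probe, and they summed to 20.5 in the mDom-/- pool and 24.4 in the wild-type pool. Nearly all of this was Plac1, at 20.4 in the mDom-/- pool and 24.0 in the wild-type pool. The part of these tissues in the members' values was not tested.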

How the data were processed

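Linear spot intensities were deposited by the authors, 1 column per array, made with CodeLink System Software, per the labels. Its version, the background correction and the scaling are not stated there; values below 0 and equal medians show a linear, already scaled table, and whether it was centred on a subset of probes is unknown. Entries of -9999 were taken as missing (106 mDom-/- and 105 wild-type probes).

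Of 36227 probes, 21615 had 1 gene symbol in the platform annotation, 681 several and 13931 none listed; 21487 matched RefSeq (GRCm38.p6) by Entrez identifier for current symbols, and probes with several symbols named no gene. Each array was divided by its median, raised to the 40th percentile floor and put on the log2 scale, mDom-/- minus wild-type. Genes took their probe of highest mean log2 intensity and were called at 2-fold. With 1 array per group there was no test. Groups came from sample titles. Precision is limited by the number of arrays.

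The members and lists were chosen with earlier results of these data known. Named genes were all members and, in each list, every gene at least 2-fold apart and the 3 compared genes of highest mean intensity; others are marked. Alternatives were other scalings (none, 75th percentile, quantile, loess with span 0.3), floors (25th and 60th percentiles, none), the mean over probes and size rules of 1.5-fold and 3-fold. The fold calls were tested on simulated data, with changes well past 2-fold in brighter probes. That simulation does not cover calls near 2-fold or on dim probes. Motifs were searched in the 250 bases before each start. A protein comparison was planned and not made here. Python 3.11.15, pandas 2.3.3 and statsmodels 0.14.6 were used.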

Additional observations from a re-analysis of the deposited data

How the results depend on the processing

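Of 178 values recomputed under an alternative, 164 stayed within 1.5 times (counts) or within the SD of 0.25 between probes (log2 ratios). Some of these could hardly move. The mean over probes cannot change a member, since each has 1 probe. Leaving out the rescaling changes little, since the deposited medians were 1.0485 (mDom-/-) and 1.0503 (wild-type). Hes5 and Neurog2 were the 2 members at least 2-fold lower under each other scaling and the 25th percentile floor. With the 60th percentile floor the count was 0, since Hes5 then had only a bound of -0.82, set by the floor, and Neurog2 was not compared, and with the 3-fold rule it was 0. Without a floor, and with the 25th percentile floor, Neurog2 had -1.82, a measured ratio in place of a bound. Without a floor 3 members were lower (Neurod4 at -1.20 was added) and 1 was higher (Hes1 at 3.08). The wild-type value of Hes1 was 0.043, near 0. Of all compared genes, 6.91% were then at least 2-fold lower and 7.34% higher. With the 25th percentile floor Neurod4 and Hes1 had -0.42 and 0.61. The median of the compared members ran from -0.64 to -0.45. Of 98 compared genes of the pathway lists outside the members, 2 were at least 2-fold lower and 1 higher. Over all compared genes the shares were 0.929% and 0.845%. With the 25th percentile floor these counts were 5 and 5 of 117, beside 3.31% and 3.38% of all compared genes. Without a floor they were 10 and 7 of 119, beside 6.91% and 7.34%. With the 60th percentile floor and with the mean over probes 1 was lower, beside 0.293% and 0.906% of all compared genes. The medians of the other neural bHLH activators and the early neurons were 0.52 and 0.54 with the 60th percentile floor, where fewer genes were compared. No paired analysis was possible because each group has 1 array. No replicate could be left out for the same reason.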

Other observations

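A pair of relatives of the members gave bounds that the report does not describe, and they were picked out after their values were seen. Id4, an inhibitor of bHLH activators in neural progenitors, read 0.414 array medians in the mDom-/- pool, below the floor, and 0.944 in the wild-type pool (at least 1.75-fold lower). Bhlhe40, a repressor related to the Hes family, read 1.02 in the mDom-/- pool and 0.262 in the wild-type pool, where it was below the floor (at least 1.89-fold higher). Since the floor sets both bounds, whether either gene was past 2-fold is not settled at this floor.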
